A study of Dugesia japonica with 15 samples.

Results

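The change from an intact animal to a regenerating trunk fragment was followed by mRNA sequencing in *Dugesia japonica*, a freshwater planarian, in animals given control RNA interference (RNAi). The 8 libraries described here are 4 from intact control RNAi animals and 4 from control RNAi trunk fragments at 5 days post amputation (5 dpa), of 15 libraries in the series. They were chosen by their labels, at a time when earlier results of these data were known. The other 7 libraries come from animals given RNAi against DjTcf4, 4 intact and 3 at 5 dpa, and are used below only as a separate set in which the same contrast can be read. Each library holds polyadenylated RNA from a group of animals. The target of the control RNAi, the strain and the age of the animals are not given here by any label. Nor do the labels say that replicates are separate animal groups, and p-values then cover only the spread between these samples, which may be technical.

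Planarians rebuild missing body parts from neoblasts, dividing stem cells spread through the body. After a cut, neoblasts and their descendants form an unpigmented bud, the blastema, while the tissue left in the fragment is reshaped to the proportions of a smaller animal. A trunk fragment has to regrow a head and a tail. The comparison therefore contains regeneration together with whatever sets a trunk apart from a whole body, and these cannot be told apart in this design. In RNA from whole fragments, fewer cells of a type and less RNA per cell cannot be told apart either. Genes are given by their IDs, because the deposited table does not pair them with names. The lists of neoblast, epidermal, muscle, neural, gut and excretory markers and of Wnt pathway genes could therefore not be looked up, and the labelled tissue has no marker check. At most 2 genes in each direction are named, and the others carry no ID here.

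Total counts were 8955897 to 11323359 per intact library and 8136366 to 11575613 per 5 dpa library. On the log2 scale the libraries of each group were more alike than libraries of different groups, with Pearson correlations across genes of 0.974 to 0.984 within intact animals, 0.971 to 0.987 within 5 dpa fragments and 0.910 to 0.970 between them; genes are not independent replicates. The first principal component held 65.4% of the variance and separated the groups. Intact replicate 1 (score -27.4, against -61.0 to -43.3 in the other 3) and 5 dpa replicate 3 (24.4, against 49.7 to 57.6) lay nearest the other group. The next component held 11.4%, and 5 dpa replicate 2 stood apart on it (-45.3, against -15.0 to 18.1 in the other 7 libraries). In 12 pairs of replicates the counts differed beyond sampling noise, with a chi-square per degree of freedom of 3.56 to 14.4.

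More genes fell than rose, and the falls were larger. Of 15809 genes tested, 6606 changed (41.8%). Of these, 3705 were lower at 5 dpa (23.4% of all genes tested) and 2901 were higher (18.4%), in edgeR's quasi-likelihood test at a Benjamini-Hochberg adjusted p under 0.05. Genes called lower had a median log2 change of -0.97 and genes called higher a median of 0.50, against 0.0073 over all genes tested. Changes of at least 2-fold were called for 1774 lower genes (11.2% of those tested) and 144 higher genes (0.911%). The number of strong rises depended on intact replicate 1: without this library, 248 genes were at least 2-fold higher. An unadjusted p under 0.05 was found for 7884 genes, where 790 would be expected with no effect.

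Among called genes, larger changes were found at lower median intact levels, in both directions up to 4-fold. A gene at a low level needs a larger change to be called, so the call itself favours this order. Levels are in CPM, counts scaled to the effective size of each library; CPM is not corrected for transcript length, so a rank of genes by CPM mixes abundance with length. Among the genes called higher, 1921 rose by less than 1.5-fold, from a median of 49.3 CPM in intact animals to 64.7 CPM at 5 dpa. A further 836 rose by 1.5- to 2-fold (median 15.4 CPM in intact animals) and 129 by 2- to 4-fold (1.80 CPM). Rises of 4- to 8-fold were found for 10 genes (11.3 CPM) and of more than 8-fold for 5 (0.265 CPM). Among the genes called lower, 897 fell by less than 1.5-fold (median 51.0 CPM in intact animals) and 1034 by 1.5- to 2-fold (21.1 CPM). Falls of 2- to 4-fold were found for 1277 genes, whose median level went from 11.3 to 4.21 CPM. In 361 genes the fall was 4- to 8-fold, from a median of 10.5 to 2.13 CPM. In 136 genes it was over 8-fold, from a median of 8.21 to 0.681 CPM.

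**Figure D1:**
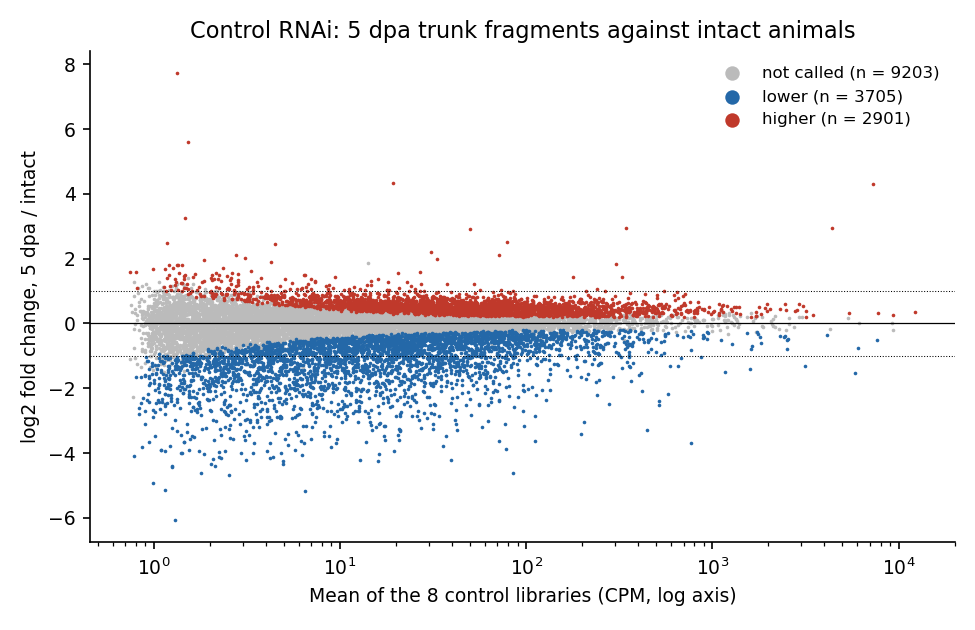
Each point is a tested gene, with its mean over the 8 control libraries in CPM on a log axis against its log2 fold change at 5 dpa over intact; red points were called higher (2901), blue points lower (3705) and grey points not called (9203), and dotted lines mark 2-fold. Blue points extend far below the lower dotted line at low and middle levels, while most red points lie inside the upper dotted line.

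When the tested genes were ranked by mean CPM and divided into 10 bins of equal size, the share called lower varied little and the share called higher climbed with level. In the lowest bin (median 1.33 CPM), 17.3% of genes were lower and 2.91% higher. In the fifth (median 11.7 CPM), 25.1% were lower and 16.2% higher. In the highest bin (median 217 CPM), 20.2% were lower and 39.0% higher. The median log2 fold change of all genes in a bin went from -0.16 in the lowest to 0.15 in the highest. Calls of at least 2-fold went the other way in both directions. Falls of this size numbered 266 in the lowest bin and 60 in the highest, and rises 39 and 9. The power of a count test grows with the count, so these shares follow depth as well as change, while the medians do not rest on the test.

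**Figure D2:**
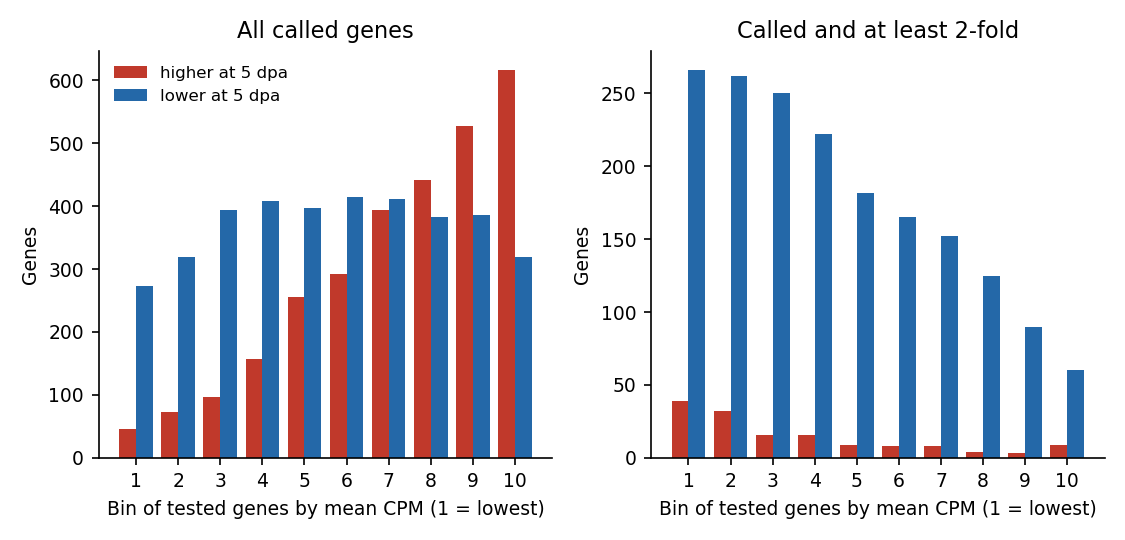
Bars count genes called higher (red) or lower (blue) at 5 dpa in each of 10 bins of tested genes ranked by mean CPM, with all called genes on the left and those changed at least 2-fold on the right. Genes called higher number 46 in the lowest bin and 616 in the highest. Between the same bins, at least 2-fold falls decline from 266 to 60 and at least 2-fold rises from 39 to 9.

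Most called genes also kept the groups apart library by library. All 4 fragments stood below all 4 intact libraries in 3404 genes (21.5% of those tested), of which 3203 were called lower. All 4 fragments stood above in 2715 genes (17.2%), of which 2354 were called higher. Of the 136 genes that fell over 8-fold and the 15 that rose at least 4-fold, none overlapped between the groups. All were called and grouped by size on these same libraries, so the lack of overlap is not separate support for the calls. A count in the fragments but in none of the 4 intact libraries was found for 1571 rows of the table, and the reverse for 1809, mostly at very low counts. Of the 1571, 10 had 20 or more counts summed over the fragments, and the gene with most, 104 counts, had all of them in replicate 1. Of the 1809, 18 had 20 or more counts summed over the intact libraries, and the gene with most, 86 counts, had 78 of them in replicate 4. Of the 10 rows 1 was called, and of the 18 rows 0.

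The strongest rises were sought among called genes with whole counts, a mean of at least 5 CPM and no overlap between the groups. They were found for DJKW.18090 and DJKW.17548. DJKW.18090 stood at 89.1, 78.5, 82.2 and 68.1 CPM in intact replicates 1 to 4 and at 761, 547, 566 and 573 CPM in the fragments. Replicate 1 was the highest of the fragments. The log2 change was 2.94 with a standard error of 0.122 (adjusted p = 1.69e-09 in edgeR), 7.70-fold. DJKW.17548 stood at 1064, 969, 1078 and 946 CPM in intact animals and at 9179, 6563, 7877 and 7593 CPM at 5 dpa. Its log2 change was 2.94 with a standard error of 0.107 (adjusted p = 3.37e-10 in edgeR), 7.69-fold.

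Another gene rose further, but its counts were fractional in each of the 8 libraries, and its level is uncertain where reads had to be split among similar sequences. It stood at 723, 777, 644 and 653 CPM in intact animals and at 14247, 15392, 13272 and 12544 CPM at 5 dpa, a log2 change of 4.31 with a standard error of 0.105 (adjusted p = 1.91e-12 in edgeR). This was the largest gain in CPM of any tested gene. The next 2 genes by the rule for naming, both called, went from 11.7 ± 1.22 to 88.3 ± 13.1 CPM (SD, n = 4 each) and from 23.6 ± 1.55 to 134 ± 19.3 CPM. Over the first 10 genes by that rule, log2 fold changes ran from 1.495 to 2.94, so the list drops below 3-fold within 10 genes of 1955 that qualified.

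The strongest falls by the same rule were found for DJKW.10081 and DJKW.16363. DJKW.10081 stood at 7.26, 17.8, 12.3 and 13.2 CPM in intact replicates 1 to 4 and at 0, 0.480, 0.758 and 0.189 CPM in the fragments, where it had at most 7 counts in a library. Intact replicate 1 was the lowest of its group. The log2 change was -5.18 with a standard error of 0.468 (adjusted p = 3.63e-06 in edgeR). DJKW.16363 stood at 67.0, 195, 179 and 212 CPM in intact animals and at 6.76, 2.16, 10.5 and 6.79 CPM at 5 dpa. Here too intact replicate 1 was the lowest intact library and 5 dpa replicate 3 the highest fragment. Its log2 change was -4.62 with a standard error of 0.522 (adjusted p = 0.000403 in edgeR). The next 2 genes by the rule, both called, went from 30.4 ± 7.999 to 1.58 ± 0.798 CPM and from 24.4 ± 8.33 to 1.29 ± 0.885 CPM (SD, n = 4 each). Over the first 10 genes, log2 changes ran from -5.18 to -3.82, so the list stayed steep where that of rising genes did not.

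**Figure D3:**
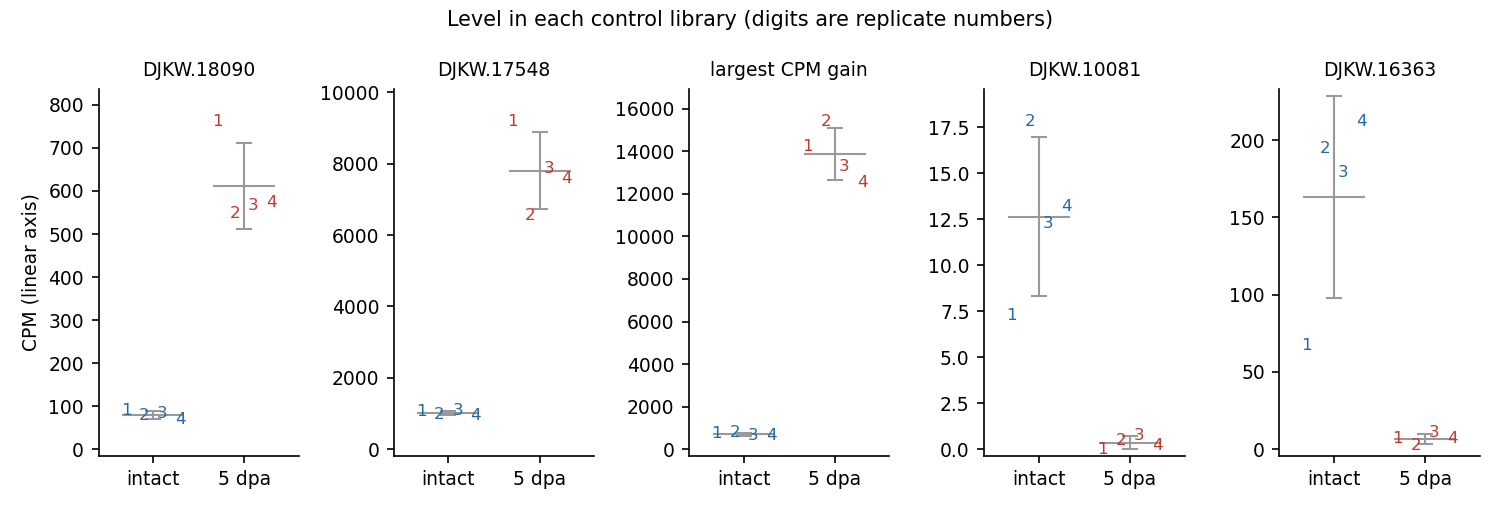
Level in CPM, on linear axes that differ between panels, of 5 genes in the 4 intact and 4 5 dpa control libraries; digits are replicate numbers and grey bars the mean ± SD. The 3 rising genes have all fragments above all intact libraries, which the rule for naming required of DJKW.18090 and DJKW.17548. In both falling genes, where the rule also barred overlap, intact replicate 1 is the lowest intact library.

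The largest loss in CPM belonged to another gene with fractional counts in all 8 libraries. It stood at 9516, 8271, 8323 and 8836 CPM in intact animals and at 2901, 2660, 2907 and 3554 CPM at 5 dpa, a log2 change of -1.54 with a standard error of 0.0981 (adjusted p = 1.06e-07 in edgeR). Its intact libraries differed little, and replicate 1 was the highest of them, unlike in the 2 falling genes named above.

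Gains were shared among many genes, with a few at the head. Summed over the 2901 genes called higher, the mean level rose by 125741 CPM; the gene with the largest gain supplied 10.5% of this sum, it and DJKW.17548 together 15.9%, and 109 genes were needed to reach 50%. Summed over the 3705 genes called lower, the mean level fell by 113416 CPM, of which the largest single loss was 5.05%, and 145 genes were needed to reach 50%. As a share of each library's counts, the genes called higher held 28.4% to 31.5% in intact animals and 40.9% to 43.4% at 5 dpa. The genes called lower held 25.5% to 29.9% and 14.6% to 17.1%. These shares describe the libraries on which the genes were called.

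The spread of counts over genes was compared between the groups with 3 values per library, each by a two-sided exact permutation test over the 8 libraries, where the smallest possible p is 0.0286. Genes with at least 1 count numbered 21432 ± 764 in intact animals and 21134 ± 834 at 5 dpa (SD, n = 4 each; exact permutation p = 0.629). The 100 genes with most counts in a library held 26.1% ± 0.924 of its counts in intact animals and 27.3% ± 0.746 at 5 dpa (exact permutation p = 0.143, n = 4 each). The effective number of genes, the exponential of the Shannon entropy of count shares, was 3354 ± 158 and 3031 ± 146 (exact permutation p = 0.0571, n = 4 each). Adjusted over the 3 tests these p-values were 0.629, 0.214 and 0.171, so none of the differences passed the threshold. Genes with at least 10 counts were fewer at 5 dpa, 14930 to 15597 against 15800 to 16417, without overlap (exact permutation p = 0.0286, n = 4 each, unadjusted).

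Called genes shared an order of the replicates within each group, and among the falling genes more so the larger the fall. Among the 497 genes that fell at least 4-fold, intact replicate 1 was the lowest of the intact libraries in 80.5%, against 29.0% over all genes tested. In the same genes 5 dpa replicate 3 was the highest fragment in 78.3%, against 26.3% over all genes. For the 1277 genes that fell 2- to 4-fold the shares were 64.6% and 71.6%, and for the 1931 that fell less they were 54.3% and 45.3%. Both libraries lay on the side of the other group, an order that makes the measured falls smaller. By mean log2 CPM, the 2901 rising genes mirrored the order of all falling genes. From the highest down, it ran 1, 3, 2, 4 in the intact replicates and 1, 2, 4, 3 in the fragments. Intact replicate 1 (5.17) and 5 dpa replicate 3 (5.59) thus lay nearest the other group here too. Intact replicate 4 was the lowest intact library in 47.4% of rising genes (26.5% over all genes). Replicate 1 was the highest fragment in 46.7% (22.9% over all genes). Both are the libraries farthest from the other group. The median SD between replicates on the log2 scale was 0.439 in intact animals and 0.609 at 5 dpa for genes lower by at least 4-fold, against 0.209 and 0.220 over all genes and 0.160 and 0.148 for genes called higher. Low counts widen this spread, and the part of counting error in it was not tested.

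The level of these gene sets is given as a mean log2 CPM per library, scaled over all 15 libraries. The 497 genes that fell at least 4-fold stood at 3.03, 3.76, 3.51 and 3.93 in control intact replicates 1 to 4 and at 0.81, 0.61, 1.63 and 0.86 in the control fragments. Intact replicate 1 was thus the lowest of its group, and 5 dpa replicate 3 the highest of the fragments. The 2901 genes called higher stood at 5.17, 5.06, 5.12 and 5.01 in intact animals and at 5.72, 5.63, 5.59 and 5.62 at 5 dpa, where replicates lay close together. The 15 genes that rose at least 4-fold stood at 2.37 to 2.61 in intact animals and at 5.27 to 5.43 in the fragments.

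**Figure D4:**
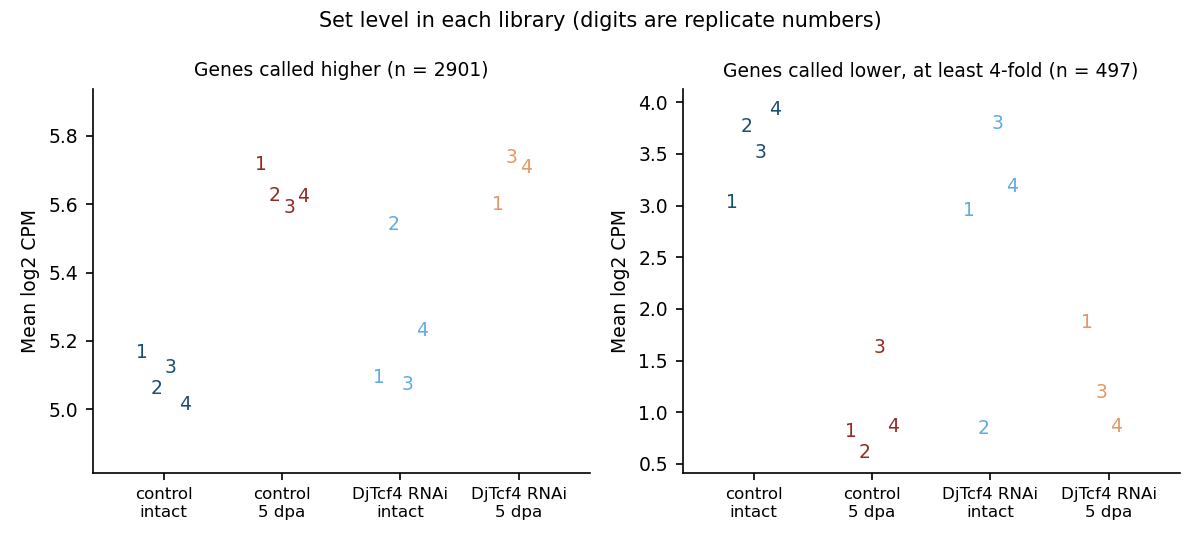
Mean log2 CPM of the 2901 genes called higher (left) and of the 497 genes called lower by at least 4-fold (right) in each of the 15 libraries, by group; digits are replicate numbers, and the y axes do not start at 0. The control groups, on which the genes were called, are apart in both panels, and DjTcf4 RNAi intact replicate 2 lies at 0.84 on the right, within the range of the 5 dpa libraries.

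Row IDs in the table are of 2 kinds, 28999 beginning with DJKW and 9793 beginning with Maker. Far fewer Maker genes passed the filter on low counts, 323 against 15486. Of the Maker genes tested, 19.5% were lower and 10.2% higher at 5 dpa, against 23.5% and 18.5% of the DJKW genes. Their median level was 2.35 CPM, against 15.3 CPM for DJKW genes, and the lower call rate was not separated from this lower level. In the bin of all tested genes with a median of 2.47 CPM, 20.2% were lower and 4.62% higher. The difference of Maker genes from this bin was not tested. Genes with a fractional count in at least 1 of the 8 libraries numbered 2633 (16.7% of those tested). Of these, 24.9% were lower and 14.2% higher, against 23.1% and 19.2% of the genes with whole counts. Their median level was 8.81 CPM, against 16.0 CPM for genes with whole counts, and the call rates were not separated from this level.

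The same contrast was then read in the DjTcf4 RNAi animals, fitted to their 7 libraries alone, so that no library is shared with the control fit. DjTcf4 RNAi intact replicate 2 stands apart from its group there. In these 7 libraries 310 of 16498 genes were lower at 5 dpa (1.88%) and 265 higher (1.61%). Without that replicate 2774 of 16227 were lower (17.1%) and 2824 higher (17.4%). That choice was made after the data were seen.

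Genes called in control moved the same way in the second set of libraries. Of the 2897 genes called higher in control that were tested there, 96.8% had a log2 fold change above 0 with all 7 libraries, against 46.5% over all genes tested in both fits, and 99.4% against 51.8% without intact replicate 2. Of the 3682 called lower, 97.4% were below 0 with all 7 libraries, and 98.9% of 3674 without that replicate. Among genes not called in control, the sign was the same in both fits for 70.1% with all 7 libraries and 76.2% without that replicate. With all 7 libraries 241 of the higher and 275 of the lower genes were also called in the same direction, and without that replicate 2138 and 2424. The sum of 516 shared calls fell when any other DjTcf4 RNAi library was left out, to 107, 255 and 229 without intact replicates 1, 3 and 4 and to 57, 80 and 47 without 5 dpa replicates 1, 3 and 4. No gene called in control was called in the opposite direction in either setting. For the higher genes the median log2 change was 0.40 with all 7 libraries and 0.55 without that replicate, against 0.50 in control, so the order of the medians turned with that library. For the lower genes it was -0.68 and -0.82, against -0.96 in control. For genes lower by at least 4-fold in control it was -1.72 and -2.01, against -2.55 in control. The genes were chosen on the control values, which raises the size of those values, and the differences between the medians were not tested.

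The 15 genes that rose at least 4-fold in control were all above 0 in the DjTcf4 RNAi animals, and 12 were called higher there with all 7 libraries. DJKW.18090 stood at 77.0, 86.2, 63.7 and 80.3 CPM in DjTcf4 RNAi intact replicates 1 to 4 and at 560, 479 and 390 CPM at 5 dpa, scaled within these libraries (log2 change 2.63, standard error 0.164, adjusted p = 0.000155 in edgeR). DJKW.17548 stood at 1094, 921, 1054 and 1233 CPM and at 8269, 7199 and 5741 CPM (log2 change 2.72, standard error 0.160, adjusted p = 0.000155 in edgeR). For both genes intact replicate 2 was at the level of the other intact libraries.

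The falling genes differed from these in that library. DJKW.16363 stood at 59.3, 6.42, 165 and 88.1 CPM in DjTcf4 RNAi intact replicates 1 to 4 and at 10.1, 7.86 and 10.96 CPM at 5 dpa, so that intact replicate 2 was below every fragment. Its log2 change was -3.04 with a standard error of 0.842 (adjusted p = 0.0847 in edgeR). DJKW.10081 stood at 6.75, 1.78, 17.5 and 8.23 CPM in intact animals and at 1.41, 0.431 and 0.685 CPM at 5 dpa (log2 change -3.30, standard error 0.761, adjusted p = 0.0523 in edgeR). Neither fall was a call in these 7 libraries. As a set, the 497 genes with falls of at least 4-fold stood at 0.84 in intact replicate 2, within the 0.61 to 1.87 of the 5 dpa libraries of both RNAi groups, and at 2.95 to 3.80 in the other 3 DjTcf4 RNAi intact libraries. The 15 genes with rises of at least 4-fold stood at 3.05 in that library, against 2.57 to 2.94 in the other 3 and 5.00 to 5.43 in all 5 dpa libraries. The 2901 genes called higher stood at 5.54 there, between 5.07 to 5.23 in the other 3 and 5.59 to 5.74 in all 5 dpa libraries.

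**Figure D5:**
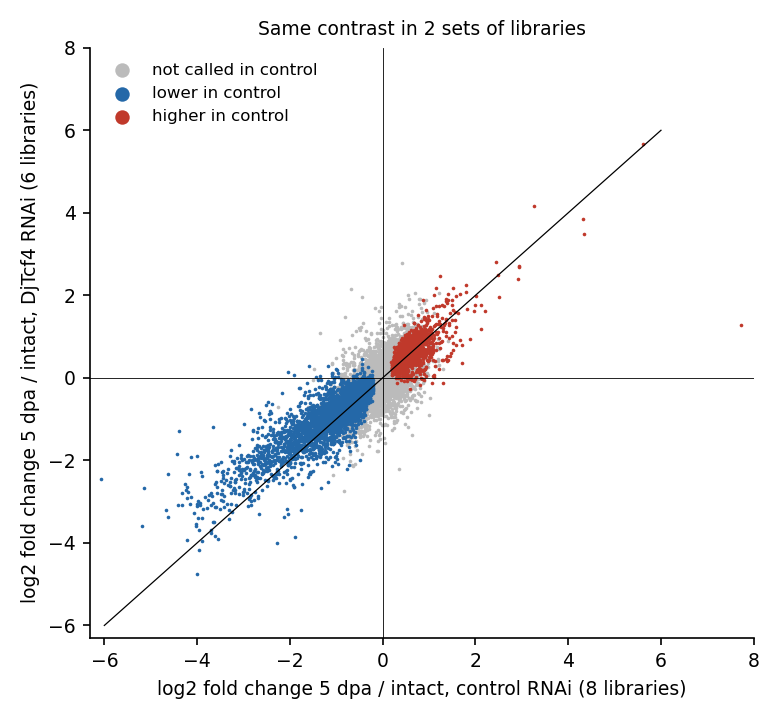
Each point is a gene, with its log2 fold change at 5 dpa over intact in control RNAi (8 libraries, x axis) against DjTcf4 RNAi (y axis, 6 libraries, without intact replicate 2); red and blue points were called higher and lower in control, and the diagonal marks equal values. Of the called genes tested in both fits, 99.4% of the higher and 98.9% of the lower ones have the same sign in both sets of libraries. Among genes not called in control the share is 76.2%.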

How the data were processed

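The table the authors deposited holds expected counts, that is, estimated read counts for each gene, and 7.78% of its values in the 8 control libraries are fractional. Per the submitters' processing notes, RSEM, HISAT2, Bowtie2 and DESeq2 were used, with no role or version stated. The genome build is not given in the sources used here, nor is the annotation. Of 38792 rows, 12238 were at 0 in all 8 libraries. Columns were matched to samples by the column names in the labels.

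Values were rounded, filtered with filterByExpr by group (minimum count 10, minimum total 15), which kept 15809 genes, scaled with TMM and tested with edgeR 4.0.16 in R 4.3.3 (quasi-likelihood, robust, 8 libraries alone, Benjamini-Hochberg adjusted p under 0.05). Standard errors are approximate, the size of the log2 change over the root of the F statistic. The biological coefficient of variation was 0.144. Set levels used log2 CPM with a prior count of 2. Steps were tested on simulated data with few changed genes, in random directions. Those data did not cover the share or the imbalance of changes found here. The standard errors include the spread between libraries. Counts of 0 are subject to counting error.

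The comparison and the lists were chosen with earlier results of these data known. Genes were named by rule: the 2 with the largest log2 fold change each way among called genes with a mean of at least 5 CPM, no overlap between groups and no fractional count. The genes with the largest gain and loss in CPM, the sets by size of change, and DjTcf4 RNAi intact replicate 2 were picked after values were seen. Alternatives included DESeq2 1.42.0 and limma 3.58.1.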

Additional observations from a re-analysis of the deposited data

Results flagged for a closer look

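In control 5 dpa replicate 2 a count was found for 19888 genes, while the other 3 fragments had 21465 to 21650, a gap that sets it far from its group. This library also had the smallest total count. At equal depth the other 3 fragments had 20813 to 21386 genes, a smaller gap, to which the rule for flags was not applied. DJKW.18090 stood at 761 CPM in control 5 dpa replicate 1, against 547 to 573 CPM in the other 3 fragments. About 1 in 20 groups of 4 would show such a gap by chance, and 22 were examined here, some of them on related values.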

How the results depend on the processing

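The numbers of genes higher (2252 to 3446), lower (2751 to 4120) and at least 2-fold lower (1564 to 2095) stayed within 1.5 times the reported values in 17 alternatives each. Genes at least 2-fold higher (144) became 231 with no filter and 249 without intact replicate 1 and 5 dpa replicate 3 together, a setting chosen after seeing the data. Leaving out a single library gave 117 to 248 such genes, 1564 to 2067 at least 2-fold lower, 2252 to 3293 higher and 3072 to 3724 lower. A filter of 1 CPM in 4 libraries kept the same 15809 genes. No gene called in the reported fit and in an alternative changed direction; the fit to all 15 libraries shared 74.3% of the calls, the others 79.9% or more. Scaling moved the median of all genes by at most 0.034. The log2 fold changes of the 4 named genes kept sign and call in all 17 alternatives (adjusted p at most 0.00795).

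With the replicate number as a block 3244 genes were higher and 3816 lower, 156 and 1778 at least 2-fold. The labels do not say whether same-numbered libraries share more than a number. Their deviations correlated at 0.254, 0.159, -0.041 and -0.078. Intact replicates 1 and 2 correlated best with the fragment library of their own number, and intact replicates 3 and 4 with that of another.

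The difference in genes with a count (-298) became 56.1 without intact replicate 1 and 117 without 5 dpa replicate 2, -303 at equal depth and -645 for at least 10 counts (exact permutation p = 0.0286); leaving out a library gave -542 to 117. The effective number differed by -323, by -380 to -277 without a library, and by -103 with the inverse Simpson index (exact permutation p = 0.0286). Control-called genes also called in DjTcf4 RNAi numbered 516 with all 7 libraries and 47 to 4562 without a library, the latter without intact replicate 2; 93.6% to 99.1% had the same sign. The cause of these differences was not tested, beyond fewer libraries. Depth limits genes near 10 counts.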

Other observations

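Fold changes at 5 dpa were more alike in genes with neighbouring ID numbers. For pairs of tested DJKW genes 1 number apart the log2 fold changes correlated at 0.211 across 8773 pairs (Spearman 0.169), at 2 apart 0.108, at 5 apart 0.022 and at 10 apart -0.0064. These are descriptions across genes of the same 8 libraries. With genes of whole counts alone the value at 1 apart was 0.226 across 6464 pairs. Where the first gene of such a pair was called lower, the next was lower in 35.8% of pairs, against 19.8% where it was not. The sources used here do not say how the IDs were numbered, and reads shared by overlapping or fragmented gene models were not examined.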
